A study of Mus musculus with 6 samples.

Results

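The MYC, MAX and MXD network is a set of 10 transcription factor genes, *Myc*, *Mycn*, *Mycl*, *Max*, *Mxd1*, *Mxd3*, *Mxd4*, *Mxi1*, *Mnt* and *Mlx*. They were chosen by gene symbol, with no threshold on their values, and each was matched through its Ensembl identifier, with *Mycl* listed under its older symbol *Mycl1*. All 10 were among the 20409 features counted in the villus epithelium of the duodenum, and all 10 passed the filter on low counts that left 13346 genes for testing. The libraries were poly(A)-enriched RNA-seq from 6 mice, 3 wild-type and 3 double mutant, each group with 1 male and 2 females. The double mutant mice were Smad4 fl/fl; Ctnnb exon3 fl/wt; Villin-CreERT2, so that Cre, driven by the epithelial Villin promoter, removes *Smad4* and 1 copy of exon 3 of the β-catenin gene, which leaves a stabilized β-catenin. They received tamoxifen at 0.05 g/kg on 4 days, and villi were collected 7 days after the first injection. The line has a background enriched in C57BL6. The wild-type mice were littermates that were not injected, so tamoxifen and genotype cannot be told apart here, and the age of the mice is not given in the sources used here. *Smad4* itself had 119.8, 180.1 and 144.5 CPM (a gene's reads relative to all reads of the library) in the wild-type mice and 26.05, 36.83 and 32.13 CPM in the double mutant mice, lower in each of the latter. Wild-type mouse 1 stood apart from the other wild-type mice, at 55.0 against -35.2 and -34.5 on the second principal component of log2 CPM, which held 18.1% of the variance, and results are therefore also given without it.

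MYC proteins bind DNA only as pairs with MAX, at the E-box letters CACGTG, where they recruit histone acetyltransferases and raise transcription of genes for growth and ribosome synthesis. MXD proteins, MXI1 and MNT pair with the same MAX and bind the same letters, but recruit SIN3 and histone deacetylases, so the balance of both kinds of partner sets the output at shared sites. MLX is a relative of MAX that pairs with some MXD proteins, MNT and the sugar-sensing factors MondoA and ChREBP. In the intestine, *Myc* is a known target of β-catenin in the crypts, and *Mxd1* is known from differentiated villus cells.

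In the double mutant villi, *Myc* and *Mycn* rose, while *Max*, *Mxd1*, *Mxi1*, *Mxd4*, *Mnt* and *Mlx* fell, the steepest fall being that of *Mxd1*, by 1.72 on the log2 scale. *Mycl* and *Mxd3* did not pass the test. Without wild-type mouse 1, 2 members were higher and 5 lower, *Mnt* being lost. Of the 10 members, 2 were higher and 6 lower at an adjusted p under 0.05 (edgeR's quasi-likelihood test, p-values adjusted by Benjamini-Hochberg across the whole table), against 19.7% higher and 17.0% lower, 36.8% in all, among the 13346 genes. The median log2 fold change was -0.42 over the members and 0.02 over all tested genes. The groups did not overlap for any member, 4 being higher and 6 lower in every double mutant mouse, and of all tested genes 52.4% had groups that did not overlap, 28.1% higher and 24.2% lower. At a log2 fold change of at least 2 in size, *Myc* and *Mycn* were higher and 0 members were lower, against 3.04% and 2.26% of all genes. Levels are CPM on library sizes scaled by edgeR's TMM factors, with 1 library per mouse and between 19678507 and 26337318 reads counted per library.

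**Figure D1:**
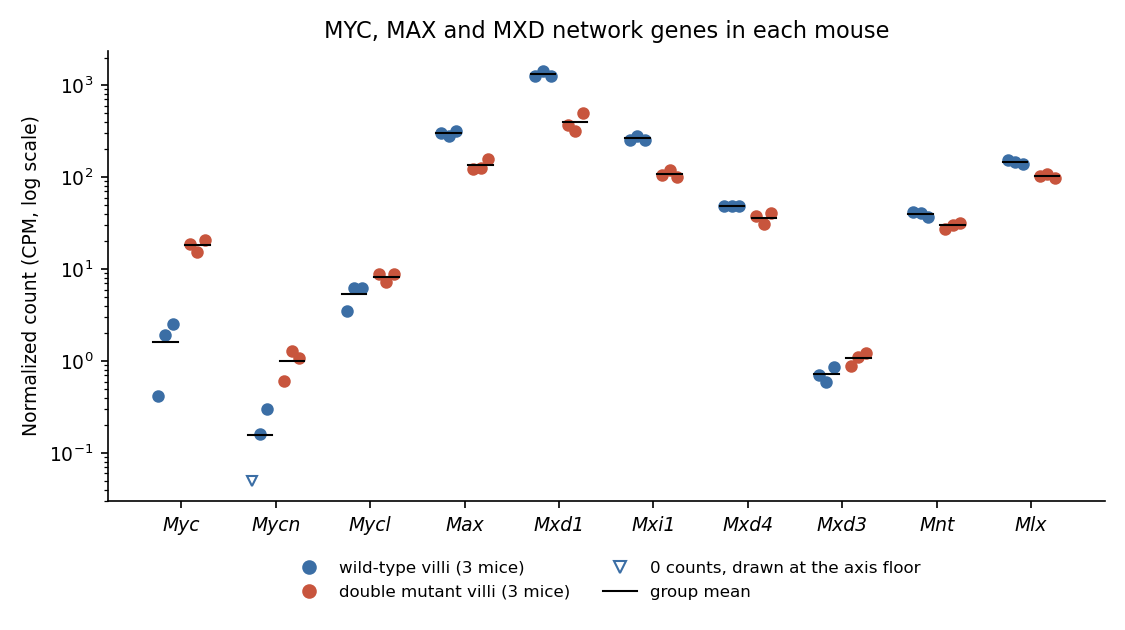
Normalized count (CPM, log axis) of the 10 network genes in each mouse, with wild-type villi in blue, double mutant villi in red, a line at each group mean and an open triangle for the wild-type mouse with 0 counts of Mycn. The points of both groups are apart for every gene, with double mutant villi above for Myc, Mycn, Mycl and Mxd3 and below for the other 6.

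*Myc* (ENSMUSG00000022346; mm9 chromosome 15, 61816946 to 61821929, plus strand) had 0.4165, 1.904 and 2.527 CPM in wild-type mice 1, 2 and 3 and 18.64, 15.54 and 20.98 CPM in double mutant mice 1, 2 and 3. The lowest double mutant value was 6.15 times the highest wild-type value, and wild-type mouse 1 lay far under the other wild-type mice. The reads behind these levels were 10, 35 and 50 counts against 397, 335 and 442. The rise of 3.53 on the log2 scale (standard error, SE, 0.523, adjusted p = 0.00234, edgeR) gave *Myc* rank 57 of 13346 genes by size of rise. With each mouse left out in turn, it stayed between 3.05 and 4.02, and its adjusted p was at most 0.0145.

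The summed shares of crypt stem cell and proliferation markers, like *Myc*, were higher in every double mutant mouse, while those of Paneth cell markers overlapped. The summed share of counts taken by 8 crypt stem cell markers was 0.00742%, 0.0170% and 0.0184% in wild-type mice 1 to 3 and 0.0415%, 0.0318% and 0.0351% in the double mutant mice (p = 0.1 in a two-sided exact permutation test, its lower limit for 3 against 3 mice). Of these markers, 3 were called higher (37.5%, against 19.7% of all tested genes) and 0 lower, *Rnf43*, a Wnt feedback inhibitor, with a log2 fold change of 0.87 and *Lgr5*, a stem cell receptor, with 2.19 among them. Without wild-type mouse 1 the number higher was 5, as it was by DESeq2 and by limma-voom with all mice, and without double mutant mouse 1 it was 1. For 14 proliferation markers the shares were 0.007825%, 0.0117% and 0.0118% against 0.0311%, 0.0313% and 0.0272%, with 11 higher (78.6%) and 0 lower, and 7 higher without double mutant mouse 2. *Pcna*, the replication clamp, rose by 1.09 on the log2 scale and *Mcm3*, a helicase subunit, by 2.88. Paneth cell markers, which also mark crypts, took 0.000744%, 0.0851% and 0.145% in wild-type mice and 0.0166%, 0.0263% and 0.0245% in double mutant mice, so that both groups overlapped and 0 of the 6 tested passed (0 also at an unadjusted p under 0.05 and by limma-voom, and 3 lower by DESeq2). Without wild-type mouse 1, 4 Paneth cell markers were lower and 1 was higher. Wild-type mouse 1 was lowest for *Myc*, *Mycn* and all 3 of these lists. In bulk tissue, more cells of a type and more RNA per cell cannot be told apart, and the part of these markers in the rise of *Myc* was not tested.

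**Figure D2:**
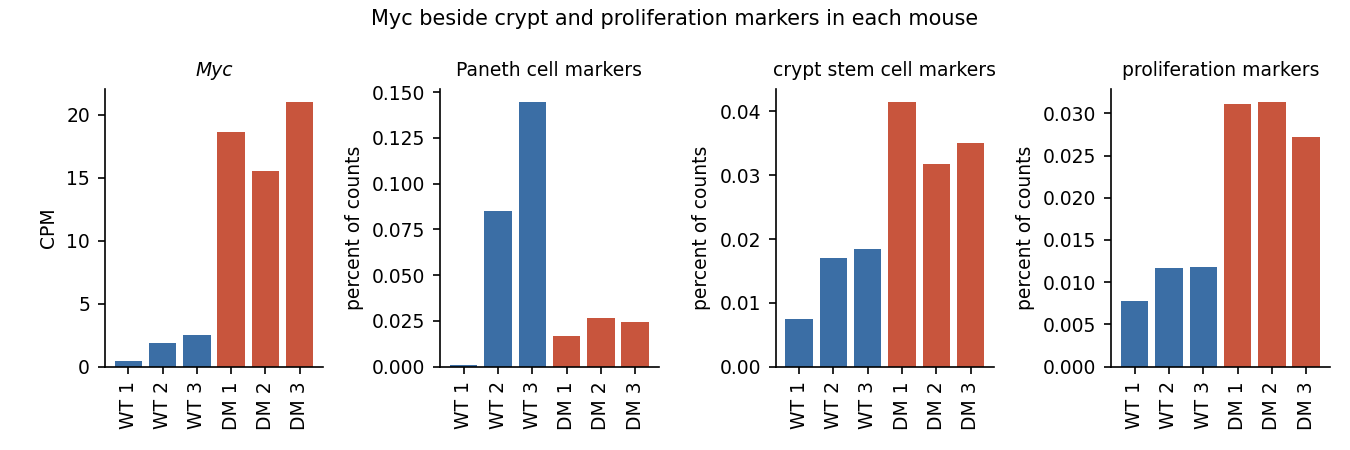
Myc (CPM) and the summed share of counts (percent) of Paneth cell, crypt stem cell and proliferation markers, as 1 bar per mouse for wild-type (WT, blue) and double mutant (DM, red) mice. Myc, crypt stem cell and proliferation markers are higher in every double mutant mouse, whereas Paneth cell markers run from 0.000744% to 0.145% in wild-type mice and overlap between the groups.

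*Mycn* (ENSMUSG00000037169; mm9 chromosome 12, 12942902 to 12948720, minus strand), the N-MYC gene of embryonic and neural tissue, was scarce throughout. Its levels were 0, 0.1632 and 0.3033 CPM in wild-type mice and 0.6103, 1.299 and 1.092 CPM in double mutant mice, from 0, 3 and 6 counts against 13, 28 and 23. The groups did not overlap, although 3 counts, the limit that a count of 0 allows, already amount to 0.125 CPM in wild-type mouse 1. No molecular identifiers were used, so this limit accounts for counting error alone. The log2 fold change was 2.70 (SE 0.804, adjusted p = 0.0292, edgeR). With a mouse left out it ran from 2.06, without wild-type mouse 1, to 3.67, without wild-type mouse 3. The adjusted p rose to 0.0803 without wild-type mouse 2, to 0.103 without double mutant mouse 2 and to 0.0870 without double mutant mouse 3, with log2 fold changes of 2.76, 2.46 and 2.63 in these fits.

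The promoter window of *Mycn* is shown because it held the densest cluster of searched letters among the members with a window. Windows run from 250 bases before to 50 bases after the annotated start, from RefSeq on GRCm38.p6, a build other than the mm9 of the counts, and 9 of the 10 members, all but *Myc*, had 1 or more, 11 windows in all. The motifs were searched on both strands. In the window at chr12:12941787-12942086, minus strand, capitals mark 3 matches to TTTNGCGC, letters known from E2F sites, which start 183, 179 and 168 bases before the gene's start, and 1 match to GGCGCC, a GC-rich SMAD motif, at 165, which overlaps the last of them.
Mycn: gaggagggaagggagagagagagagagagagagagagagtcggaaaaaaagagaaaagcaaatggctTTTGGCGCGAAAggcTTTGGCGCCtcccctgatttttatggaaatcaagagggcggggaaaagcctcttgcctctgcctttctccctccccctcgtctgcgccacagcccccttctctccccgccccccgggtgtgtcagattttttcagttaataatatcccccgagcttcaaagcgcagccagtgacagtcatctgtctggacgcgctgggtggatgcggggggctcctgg
TTTNGCGC was found in 1.38% and GGCGCC in 11.9% of all 32851 windows. CTTTGNT, letters known from TCF/LEF sites, were found in 18.6% of all windows and not in this one. A match is a description of the letters and does not show that a factor binds.

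*Mycl* (ENSMUSG00000028654; mm9 chromosome 4, 122672895 to 122679728, plus strand), the L-MYC gene, had 3.541, 6.256 and 6.166 CPM in wild-type mice and 8.779, 7.235 and 8.876 CPM in double mutant mice. Every double mutant mouse was above every wild-type mouse, by a factor of 1.16 for the closest pair. The log2 fold change of 0.64 (SE 0.253) had an adjusted p of 0.0772 by edgeR, and scaling by library size alone gave 0.83 with an adjusted p of 0.0353. Per kilobase of exon, *Mycl* was the most abundant MYC gene within each wild-type mouse, at 0.877, 1.55 and 1.53 CPM per kb against 0.153, 0.701 and 0.930 for *Myc*. In double mutant villi this order was turned, with 2.17, 1.79 and 2.20 CPM per kb for *Mycl* and 6.86, 5.72 and 7.72 for *Myc*. *Mycl* made up 85.1%, 67.4% and 59.9% of the summed MYC level per kb in wild-type mice and 23.6%, 22.7% and 21.4% in double mutant mice. The share of *Myc* was 14.9%, 30.5% and 36.5% against 74.4%, 72.3% and 75.3%, so the double mutant mice were much closer to each other than the wild-type mice were.

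*Max* (ENSMUSG00000059436; mm9 chromosome 12, 78038256 to 78063235, minus strand), the partner that both kinds of protein need, had 301.2, 283.3 and 316.1 CPM in wild-type mice and 123.7, 124.9 and 157.6 CPM in double mutant mice. The lowest wild-type value was 1.80 times the highest double mutant value. *Max* fell by 1.15 on the log2 scale (SE 0.128, adjusted p = 0.000421, edgeR), from a mean of 300.2 ± 16.4 to 135 ± 19.3 CPM (SD, n = 3 mice), and its log2 fold change was between -1.27 and -1.08 with any mouse left out.

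*Mxd1* (ENSMUSG00000001156; mm9 chromosome 6, 86597038 to 86619153, minus strand), which encodes the MAX partner of differentiating cells once called MAD1, had 1248, 1419 and 1258 CPM in wild-type mice and 371.8, 318.0 and 501.0 CPM in double mutant mice. The groups were 2.49-fold apart at their closest. Its mean fell 3.30-fold, from 1309 ± 95.7 to 397 ± 94.1 CPM (SD, n = 3), a log2 fold change of -1.72 (SE 0.175, adjusted p = 0.000304, edgeR). By size of fall it had rank 436 of 13346 genes. The coefficient of variation was 7.31% in wild-type and 23.7% in double mutant mice, double mutant mouse 3 being the highest of the latter for *Mxd1* and for *Max*.

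*Mxi1* (ENSMUSG00000025025; mm9 chromosome 19, 53384996 to 53450300, plus strand), a further MAX partner of the repressing kind, had 255.0, 279.3 and 256.6 CPM in wild-type and 104.9, 120.7 and 100.3 CPM in double mutant mice. No mouse of either group came within 2.11-fold of the other group. *Mxi1* fell by 1.28 on the log2 scale (SE 0.113, adjusted p = 0.000175, edgeR), with -1.36 to -1.22 when a mouse was left out. *Mxi1*, *Mxd1* and *Max* were thus each lower by more than 1 on the log2 scale, and each call held in all 6 fits with a mouse left out.

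*Mxd4* and *Mnt* moved less. *Mxd4* (ENSMUSG00000037235; mm9 chromosome 5, 34516536 to 34530369, minus strand), an MXD gene of resting cells, had 48.57, 48.80 and 48.72 CPM in wild-type mice, nearly the same value 3 times, and 37.79, 30.80 and 40.49 CPM in double mutant mice. Its log2 fold change was -0.42 (SE 0.128, adjusted p = 0.0318, edgeR), and the adjusted p was 0.0555 to 0.0936 in 4 of the 6 fits with a mouse left out, those without wild-type mice 2 or 3 or double mutant mice 1 or 2. *Mnt* (ENSMUSG00000000282; mm9 chromosome 11, 74644422 to 74659227, plus strand), a MAX partner that many cell types make, dividing ones included, had 42.28, 41.02 and 36.49 CPM against 27.27, 30.52 and 32.09 CPM. All double mutant mice lay under all wild-type mice for both genes. The log2 fold change of *Mnt* was -0.41 (SE 0.121, adjusted p = 0.0268, edgeR), and it passed in only 1 of the 6 fits with a mouse left out, the one without wild-type mouse 3, with adjusted p of 0.0522 to 0.0773 in the others. With library size alone, *Mxd4* changed by -0.23 (adjusted p = 0.205) and *Mnt* by -0.22 (adjusted p = 0.161), so these 2 calls rest on the scaling as well.

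*Mxd3* (ENSMUSG00000021485; mm9 chromosome 13, 55426529 to 55431119, minus strand), the MXD gene known from cells in S phase, was close to the limit of detection. It had 0.7081, 0.5984 and 0.8593 CPM in wild-type mice and 0.8919, 1.113 and 1.234 CPM in double mutant mice, from 11 to 17 and 19 to 26 counts. The groups did not overlap, but were only 1.04-fold apart at the closest pair. The log2 fold change of 0.58 (SE 0.387) had an adjusted p of 0.277 by edgeR. *Mxd3* shares 104 of its 2081 exon bases with *Prelid1* on the opposite strand, a gene with 53067 counts in all 6 mice, far more than *Mxd3*, and since the strand setting of the counting is not given in the sources used here, reads there cannot be assigned and their part in the level of *Mxd3* was not tested.

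*Mlx* (ENSMUSG00000017801; mm9 chromosome 11, 100948591 to 100953521, plus strand), the MAX-like partner, had 153.5, 146.6 and 140.1 CPM in wild-type mice and 102.6, 109.0 and 98.92 CPM in double mutant mice. The groups were well apart. *Mlx* fell by 0.50 on the log2 scale (SE 0.101, adjusted p = 0.00554, edgeR), and the call held with each mouse left out, with -0.54 to -0.47. It overlaps *Psmc3ip* on the opposite strand over 385 bases, 19.3% of its exon length, and that gene had 133 counts in all 6 mice, against 2084 to 3685 for *Mlx* in each. Reads in the overlap cannot be assigned either, and their part in the level of *Mlx* was not tested.

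**Figure D3:**
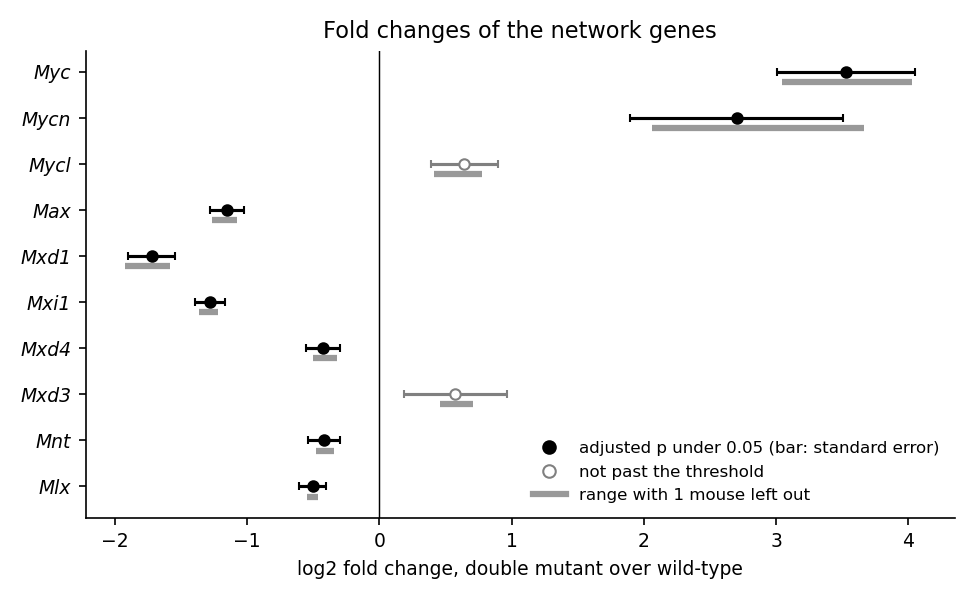
Log2 fold change of each network gene, double mutant over wild-type, with its standard error (edgeR), filled where the adjusted p is under 0.05, and the range over 6 fits with 1 mouse left out as a grey bar. Myc and Mycn lie at 3.53 and 2.70, Mxd1, Mxi1 and Max between -1.72 and -1.15, and Mlx, Mxd4 and Mnt between -0.50 and -0.41.

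Of the 9 members with a promoter window, *Myc* not being among them, 6 fell. The E-box CACGTG was in the windows of 4 of the 9, and these 4 were among the 6 that fell. *Mxd1* and *Mxi1*, the members with the largest falls, held none, and a link between the E-box and the fall was not tested. The windows of *Max* (chr12:76962199-76962498, minus strand), *Mlx* (chr11:101087040-101087339, plus strand), *Mnt* (chr11:74830674-74830973, plus strand) and *Mxd4* (chr5:34187661-34187960, minus strand), all on GRCm38.p6, are shown since they carry the letters that the network's own proteins bind. Capitals mark the E-box and, in *Max*, also GGCGCC.
Max: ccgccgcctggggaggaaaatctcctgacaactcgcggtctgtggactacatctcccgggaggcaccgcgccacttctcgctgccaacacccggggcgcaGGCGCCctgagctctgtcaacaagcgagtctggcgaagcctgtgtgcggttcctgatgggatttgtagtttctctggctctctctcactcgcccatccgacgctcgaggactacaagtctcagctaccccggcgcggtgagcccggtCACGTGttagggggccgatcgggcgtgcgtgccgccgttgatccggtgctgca
Mlx: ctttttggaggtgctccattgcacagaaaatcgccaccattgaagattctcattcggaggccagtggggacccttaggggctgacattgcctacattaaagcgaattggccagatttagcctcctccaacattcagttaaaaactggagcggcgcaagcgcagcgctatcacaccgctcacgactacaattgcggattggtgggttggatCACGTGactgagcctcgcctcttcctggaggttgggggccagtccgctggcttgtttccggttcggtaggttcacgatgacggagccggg
Mnt: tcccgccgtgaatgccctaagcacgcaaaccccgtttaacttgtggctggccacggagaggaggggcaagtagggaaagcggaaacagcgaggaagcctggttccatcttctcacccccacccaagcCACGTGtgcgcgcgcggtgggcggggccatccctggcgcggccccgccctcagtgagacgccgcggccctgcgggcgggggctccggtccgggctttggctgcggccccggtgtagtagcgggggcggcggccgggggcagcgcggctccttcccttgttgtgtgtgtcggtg
Mxd4: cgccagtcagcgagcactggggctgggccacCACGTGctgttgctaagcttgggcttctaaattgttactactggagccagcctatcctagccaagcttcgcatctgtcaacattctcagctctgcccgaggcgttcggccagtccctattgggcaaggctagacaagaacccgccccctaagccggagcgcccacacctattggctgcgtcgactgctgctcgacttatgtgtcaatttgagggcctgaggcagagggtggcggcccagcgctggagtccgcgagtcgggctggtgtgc
The E-box started 3 bases before the annotated start in *Max*, 40 in *Mlx*, 123 in *Mnt* and 219 in *Mxd4*. It was in 4 of the 11 windows of members (36.4%), against 7.15% of all windows. The windows of *Mxd1*, *Mxd3* and *Mycl* held none of the 5 motifs searched, which included the SMAD palindrome GTCTAGAC, found in 0.213% of all windows. *Mxi1* had GGCGCC in windows 1 and 3 and AGCAAAG, a match to CTTTGNT on the other strand, in window 2.

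Compared per kilobase of exon, *Mxd1* was the highest member in wild-type villi, at 280.7 ± 20.5 CPM per kb (SD, n = 3), followed by *Max* at 149.7 ± 8.19, *Mlx* at 73.4 ± 3.36, *Mxi1* at 46.9 ± 2.42, *Mxd4* at 12.5 ± 0.030 and *Mnt* at 8.63 ± 0.658. *Mycl*, at 1.32 ± 0.382, overlapped *Myc*, at 0.595 ± 0.399, and *Myc* overlapped *Mxd3*, at 0.347 ± 0.0629, with *Mycn* last at 0.0472 ± 0.0461. In double mutant villi, *Mxd1*, at 85.1 ± 20.2, overlapped *Max*, at 67.5 ± 9.60, and *Myc*, at 6.77 ± 1.01, moved up to the level of *Mnt*, at 6.48 ± 0.530, which it overlapped. The other members kept their order, with *Mlx* at 51.8 ± 2.56, *Mxi1* at 19.3 ± 1.91, *Mxd4* at 9.37 ± 1.29, *Mycl* at 2.06 ± 0.228, *Mxd3* at 0.519 ± 0.0834 and *Mycn* at 0.304 ± 0.107. Every step of both orders not named as an overlap separated all mice of the group. The study used samples with an RNA integrity number over 4, and the part of RNA quality in levels compared between genes was not tested.

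**Figure D4:**
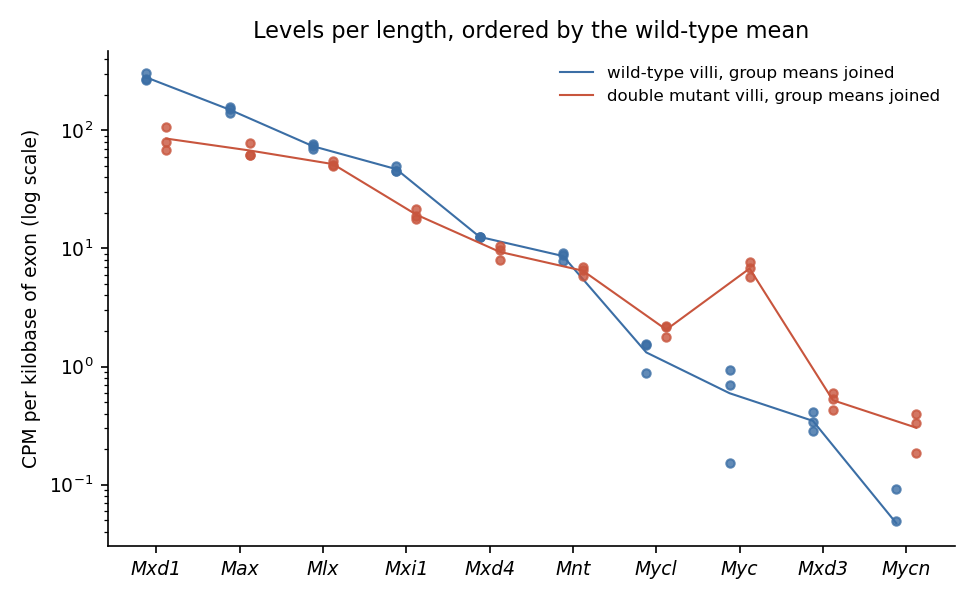
Level per length (CPM per kilobase of exon, log axis) of the network genes, ordered by the wild-type mean, with 1 point per mouse and lines joining the group means (wild-type blue, double mutant red). The wild-type mouse with 0 counts of Mycn has no point on the log axis. The distance between Mxd1, the leftmost gene, and Myc is smaller in double mutant villi, where Myc reaches the level of Mnt.

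Summed per kb, the MYC genes amounted to 1.03, 2.30 and 2.55 CPM per kb in wild-type mice and 9.22, 7.905 and 10.25 in double mutant mice. The repressing partners *Mxd1*, *Mxd3*, *Mxd4*, *Mxi1* and *Mnt* summed to 335, 376 and 336 against 115, 105 and 143. Transcripts of the repressing partners thus outnumbered those of the MYC genes in every mouse, by 325-, 163- and 132-fold in wild-type and 12.4-, 13.25- and 14.0-fold in double mutant mice. The wild-type mice differed in this ratio mainly by their *Myc* and *Mycl*, which were lowest in mouse 1. *Mxd1* made up 79.9%, 81.0% and 80.2% of the repressing sum in wild-type and 69.7%, 65.1% and 75.0% in double mutant mice. The MYC and repressor sum over *Max* was 2.24, 2.68 and 2.15 in wild-type and 2.005, 1.81 and 1.95 in double mutant mice, with every double mutant mouse under every wild-type mouse. These ratios are of transcripts, are given as a description with no test, and say nothing of protein amounts.

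Among all genes with a mean of at least 1 CPM, those most like *Myc* over the 6 mice by Pearson's r of log2 CPM were *Dusp3*, a phosphatase gene (r = 0.999), *4930422G04Rik* (0.998) and *Tmem109* (0.998), and 685 of 12101 genes had an r over 0.95. Those most like *Mxd1* were *Tom1l2* (0.999), *Nuak2*, a kinase gene (0.998), and *Ccng2*, which encodes a cyclin of cells that leave the cycle (0.998), among 754 over 0.95. All 6 mice, in 2 groups, are shared by these values, so a gene that separates the groups tends to have a high r. *Ccng2* went from 321 ± 20.5 to 59.1 ± 16.8 CPM and *Dusp3* from 2.86 ± 0.905 to 7.70 ± 0.335 CPM (SD, n = 3).

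A further 10 factors bind E-boxes or pair within the wider network. Of these, 8 were tested, 1 higher (12.5%, against 19.7% of all tested genes) and 2 lower (25%, against 17.0%), with a median log2 fold change of 0.01. *Tfap4*, an E-box factor that MYC is known to activate, rose from 2.05 ± 0.461 to 7.99 ± 0.473 CPM (1.95 on the log2 scale, adjusted p = 0.000645). *Tfeb*, a regulator of lysosome genes, fell by 0.92 on the log2 scale (adjusted p = 0.00260), and *Mlxipl*, which encodes the MLX partner ChREBP, fell from 183 ± 29.5 to 138 ± 12.4 CPM (-0.41 on the log2 scale, adjusted p = 0.0472). The list had 1 lower gene in each fit with a mouse left out, apart from 2 without wild-type mouse 1. *Mlxip*, the gene of MondoA, had 48.35 ± 7.715 and 59.3 ± 9.485 CPM and did not pass (adjusted p = 0.1905). Nor did *Mga*, *Usf1*, *Usf2* and *Tfe3*, with log2 fold changes of 0.19, 0.17, -0.16 and -0.31. *Mitf* and *Tfec* were under the filter, with at most 0.142 CPM in any mouse.

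Lists of proteins that act with MYC or MXD were read side by side. Of 14 genes listed as MYC coactivators, 5 were higher (35.7%, against 19.7% of all tested genes) and 0 lower (0 lower also at an unadjusted p under 0.05 and by DESeq2 or limma-voom), with a median log2 fold change of 0.17. The list also takes in *Smarcb1* and *Zbtb17*, which may not act as coactivators. *Smarcb1* was among the 5 (0.473 on the log2 scale, adjusted p = 0.0367, edgeR), and *Zbtb17* did not pass (-0.265). *Kat2a*, the GCN5 histone acetyltransferase, rose from 1.375, 3.210 and 3.235 CPM in wild-type mice to 14.04, 13.54 and 15.28 CPM in double mutant mice (2.46 on the log2 scale, adjusted p = 0.000692). The helicase genes *Ruvbl1* and *Ruvbl2* rose by 1.96 and 1.17 on the log2 scale, and *Trrap*, the scaffold that MYC binds, had 50.4 ± 3.37 and 50.9 ± 6.32 CPM. Of 15 genes of MXD corepressors, 2 were higher (13.3%) and 1 lower (6.67%), both under the 19.7% and 17.0% of all tested genes, with a median of 0.03. *Hdac2*, a histone deacetylase, rose from 13.03 ± 0.915 to 29.5 ± 1.94 CPM (1.18 on the log2 scale, adjusted p = 0.000379) and *Rbbp7* rose by 1.04, while *Ncor1* fell by 0.76 (adjusted p = 0.0185). *Sin3a* and *Sin3b*, whose proteins bind MXD directly, had log2 fold changes of -0.04 and 0.06 and did not pass. The call of *Ncor1* was lost without double mutant mouse 2 or 3, which left 0 genes of the list lower.

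Of 14 genes that act on MYC protein, 2 were higher (14.3%), 2 lower (14.3%) and 10 did not pass, with a median of -0.09. Both shares are under those of all tested genes, 19.7% and 17.0%. Only 1 gene was higher without wild-type mouse 1 or 2 or double mutant mouse 1 or 3, and only 1 lower without wild-type mouse 2 or 3 or double mutant mouse 2 or 3. *Aurka*, a mitotic kinase known to stabilize N-MYC, rose from 3.53 ± 0.717 to 8.265 ± 1.96 CPM (1.23 on the log2 scale, adjusted p = 0.00654), and *Cip2a*, an inhibitor of the phosphatase PP2A, rose by 0.77. *Gsk3a* and *Gsk3b*, whose kinases mark MYC for degradation, fell by 0.62 (adjusted p = 0.00471) and 0.49, and *Fbxw7*, the ubiquitin ligase gene that reads this mark, had 12.3 ± 0.684 and 11.3 ± 0.650 CPM and did not pass. Of 10 genes of the repressor complex of MAX and MGA, 5 were higher (50%) and 1 lower (10%), with a median of 0.56. *Tfdp1* rose by 0.85 (adjusted p = 0.001395) and *L3mbtl2* by 1.20 (adjusted p = 0.00699), together with *Pcgf6*, *E2f6* and *Cbx3*, while *Rybp* fell from 49.0 ± 7.94 to 26.95 ± 3.325 CPM (-0.86 on the log2 scale, adjusted p = 0.00338). *Mga* stands in this list and in that of the other factors, and *Tfap4* in the latter and among the MYC-activated targets below.

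Genes known to be activated by MYC were mostly higher. Of 56 listed genes, all tested, 46 were higher (82.1%, against 19.7% of all tested genes), 1 was lower and 9 did not pass, with a median log2 fold change of 1.44. This list was chosen with earlier results of these data known, so the share is a description and not an independent check. The smallest adjusted p was that of *C1qbp*, a mitochondrial protein gene, with 14.91, 14.74 and 15.72 CPM in wild-type and 51.69, 67.62 and 56.15 CPM in double mutant mice (1.95 on the log2 scale, adjusted p = 6.79e-05). The largest rise was that of *Grwd1*, a ribosome assembly gene, from 1.03 ± 0.374 to 7.81 ± 1.68 CPM (2.93 on the log2 scale, adjusted p = 0.0004965). *Ldha*, which encodes lactate dehydrogenase A, was the exception, falling from 2723 ± 210.2 to 2031 ± 223 CPM (-0.42 on the log2 scale, adjusted p = 0.0323), a call made in 1 of the 6 fits with a mouse left out, the one without double mutant mouse 2. Promoter windows with CACGTG were 16 of 58 (27.6%) for these targets, 2 of 16 (12.5%) for the MYC-repressed targets and 0 of 12 for the proliferation markers, against 7.15% of all windows. They were 1 of 15 (6.67%) for the MYC coactivators and 1 of 18 (5.56%) for the MXD corepressors. The summed shares of the proliferation and crypt stem cell markers described above were higher in every double mutant mouse, with 11 of 14 and 3 of 8 genes called. Their part in this count was not tested.

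Of 12 genes known to be repressed by MYC, 7 were lower (58.3%, against 17.0% of all tested genes), 2 higher and 3 did not pass, with a median of -0.55. Here too the list was chosen with earlier results of these data known, so the share is a description. *Cdkn1a*, the p21 inhibitor of cyclin-dependent kinases, had 385.1, 309.6 and 308.9 CPM in wild-type and 85.02, 103.5 and 76.23 CPM in double mutant mice (-1.92 on the log2 scale, adjusted p = 0.000114). *Klf6*, *Gadd45a*, *Ddit3*, *Cdkn2b*, *Cdkn1b* and *Btg2* also fell, by 1.43, 1.01, 0.81, 0.64, 0.55 and 0.55 on the log2 scale. *Cebpa*, a differentiation factor, rose by 0.68 (adjusted p = 0.0106) and *Fth1*, the ferritin heavy chain, by 0.63. The share of all counts in this list was nevertheless higher in double mutant mice, 0.767% ± 0.0659 against 0.503% ± 0.0711 (SD, n = 3), since *Fth1* alone had 4269 ± 698 and 6614 ± 564 CPM.

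Of 15 targets of the MLX partners MondoA and ChREBP, 3 were higher (20%) and 5 lower (33.3%), against 19.7% and 17.0% of all tested genes, with a median log2 fold change of 0.02 in both cases. *Fasn*, the fatty acid synthase, rose from 32.4 ± 7.44 to 86.05 ± 4.49 CPM (1.41 on the log2 scale, adjusted p = 0.000549), and *Acaca* and *Arrdc4* rose by 0.73 and 0.68. *Slc2a5*, the fructose transporter, fell from 998.5, 698.8 and 608.7 CPM to 205.4, 263.1 and 285.8 CPM (-1.61 on the log2 scale, adjusted p = 0.000841), and the sugar-metabolism genes *Tkfc*, *Pklr* and *Khk* fell by 0.78, 0.71 and 0.65. *Txnip*, the best known target of both partners, had 200.3 ± 60.6 and 202.6 ± 11.1 CPM and did not pass.

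**Figure D5:**
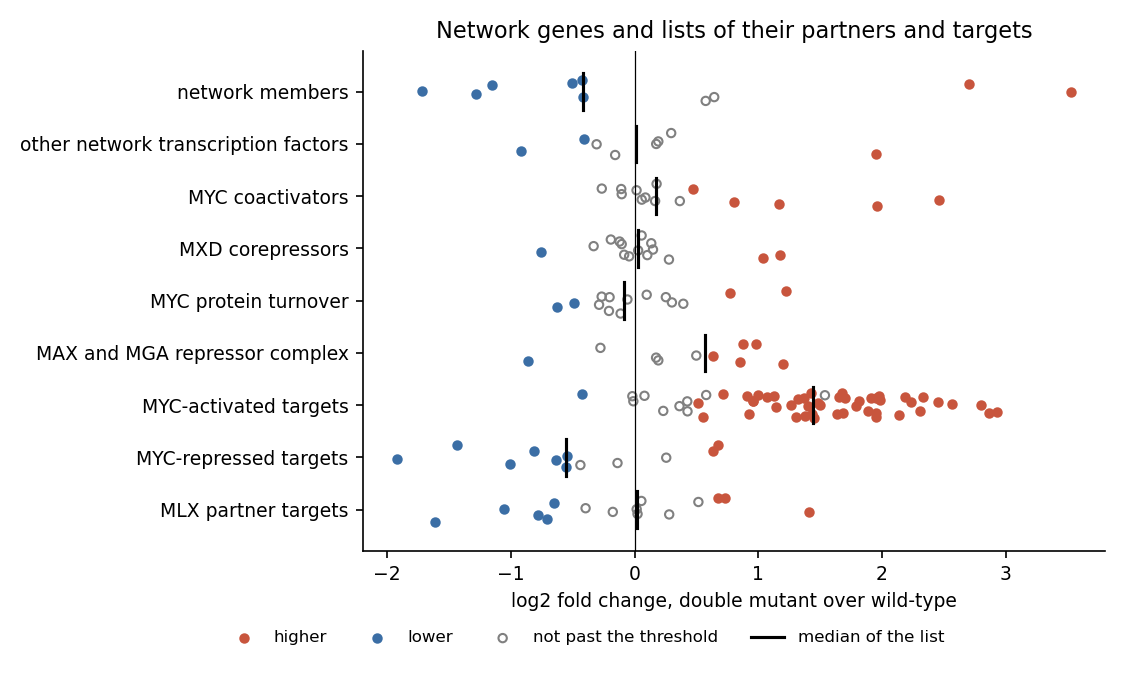
Log2 fold change, double mutant over wild-type, of the network members and the genes of each list, 1 point per gene, red where higher, blue where lower, open where the adjusted p was not under 0.05, with a bar at the median of the list. Members have a median of -0.42, MYC-activated targets of 1.44 and MYC-repressed targets of -0.55, against 0.17 for MYC coactivators and 0.03 for MXD corepressors.

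Enterocyte markers, which define the labelled tissue, took 4.25%, 3.85% and 4.00% of counts in wild-type mice and 2.62%, 2.68% and 2.72% in double mutant mice, with 6 of 10 lower (60%, against 17.0% of all tested genes) and 0 higher, *Lct*, the lactase gene, among them (log2 fold change -2.04, edgeR). The 7 tuft cell markers that passed the filter were all lower, with log2 fold changes of -3.33 for *Dclk1*, a tuft cell kinase, and -4.13 for *Sh2d6*. So were 6 of 8 enteroendocrine markers (75%), with log2 fold changes of -1.295 for *Chgb*, a granule protein gene, and -2.84 for *Tph1*, the enzyme of serotonin synthesis. Goblet cell markers, with 1 of 8 higher and 0 lower, ran from 0.0131% in wild-type mouse 1 to 1.46% in wild-type mouse 2 and overlapped between the groups. The higher one, listed as *Clca1* in the annotation used (ENSMUSG00000056025), had 2.624, 5.821 and 3.033 CPM in wild-type mice and so did not share the low level of the other 7 in wild-type mouse 1; it is not the goblet cell CLCA gene, which is listed as *Clca3*, and none of the other 7 was higher. Without wild-type mouse 1, 5 goblet cell markers were lower. Of 8 tested lymphocyte markers, 2 were lower (25%), *Ptprc*, the leukocyte antigen CD45, among them (log2 fold change -1.29), against 6 without wild-type mouse 1 and 1 without wild-type mouse 2 or 3 or double mutant mouse 1 or 2, 5 by DESeq2 and 4 with sex as a covariate. Myeloid and stromal markers had 2 tested genes each, 0 of which passed by edgeR, DESeq2 or limma-voom (1 of them, *Itgam*, had an unadjusted p of 0.0286, and 1 myeloid marker was higher with library size alone). Their summed shares were 0.000384% to 0.000519% against 0.000645% to 0.000869% for myeloid markers and 0.000160% to 0.000301% against 0.000409% to 0.00105% for stromal markers, and *Col1a1*, *Col1a2*, *Col3a1* and *Pdgfra*, the collagen and fibroblast genes, had at most 0.371 CPM in any mouse. The smooth muscle genes *Myh11*, *Acta2* and *Des* had 2.21, 1.88 and 1.64 CPM in double mutant mouse 1 and at most 0.371 CPM in the other mice. The part of these cell types in the falls of *Mxd1*, *Max* and *Mxi1* was not tested.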

How the data were processed

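Per the submitters' processing notes and the study's methods, HISAT2 placed the reads on mm9 and featureCounts summed them by gene. The authors deposited these raw counts without normalization, 1 column per mouse. The strand setting is not given in the sources used here. The table held 20409 features, of which 20032 had an entry in GENCODE's mm9 annotation and 336, with 0.243% of counts, were transcripts numbered outside it. Groups and replicate numbers came from the sample labels.

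Everything from the counts on was computed here in R 4.3.3 with edgeR 4.0.16, which filtered genes by filterByExpr with the group, scaled them by TMM and fitted the 6 mice with glmQLFit (robust) and glmQLFTest. p-values were adjusted over all 13346 tested genes, and each standard error is the absolute log2 fold change over the root of the F statistic. Levels per kb used the union of exons. Alternatives used DESeq2 1.42.0, limma 3.58.1, other scalings, filters and designs, and each mouse left out in turn.

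All 10 members were named with their values. Of the other lists (other network transcription factors, MYC coactivators, MXD corepressors, MYC protein turnover, the MAX and MGA complex, MYC-activated and MYC-repressed targets, MLX partner targets and markers of cell types), the genes with the smallest adjusted p and the largest change in each direction were named, with every other network factor; further genes were added after their values were seen. The members and lists were chosen with earlier results of these data known. Of 249 list entries, 245 were in the table. The values of 1 gene of the list of MLX partner targets are not reported here.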

Additional observations from a re-analysis of the deposited data

How the results depend on the processing

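Over 138 fits of single members under other settings, 0 changed direction, 16 lost their call and 1, *Mycl* with library size alone, gained one. Library size alone moved the median log2 fold change of all genes from 0.02 to 0.21 and the calls from 2632 higher and 2273 lower (53.7% higher) to 3732 and 1425 (72.4% higher), and those of the members from 2 higher and 6 lower to 3 higher and 4 lower (42.9% higher). It also left 1 other network transcription factor, 0 MXD corepressors, 1 gene of MYC protein turnover, 0 MYC-activated and 4 MYC-repressed targets lower, and 5 turnover genes higher. The stricter filter of at least 1 CPM in at least 3 mice dropped *Mycn* and left 1 member higher, and 0 members were lower at a log2 fold change of at least 2 in size. The number of other network factors lower was 1 with no low-count filter, with sex as a covariate and with the replicate block. With a mouse left out, 1 to 2 members were higher and 4 to 5 lower, 1 to 2 other factors and 0 to 1 corepressors lower, 1 to 2 turnover genes higher and 1 to 2 lower, and 0 to 1 MYC-activated targets lower. The longest transcript as length gave 7.86 CPM per kb for *Myc* and 2.37 for *Mycl* in double mutant villi, 0.414 and 0.620 for *Mxd3* in wild-type and double mutant villi, and 12.6 for *Mxd4* and 51.1 for *Mxi1* in wild-type villi. Where a setting changed a result, the cause was not tested.

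By the replicate numbers of the labels, the deviations of same-numbered mice correlated by 0.022, -0.109 and 0.012. A supplementary sheet of the study numbers the mice differently, and pairs by that numbering correlated by 0.022, 0.036 and 0.093. Neither numbering thus showed variation shared within pairs. The study's methods state that replicates were matched by age and sex between the groups. With 3 mice per group, these correlations cannot exclude such matching. The block below uses the labels' numbers. With the number as a block, 2 members were higher and 4 lower, *Mxd4* having an adjusted p of 0.0646 and *Mnt* of 0.0775, turnover genes were 1 higher and 1 lower, 0 MYC-activated targets were lower, and 2084 genes were higher and 1750 lower. Depth limits *Mycn* and *Mxd3*, each with under 60 counts in every mouse.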
